A study of Homo sapiens with 6 samples.

Results

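The genes described here are 8 members of the interleukin-7 and common gamma-chain signalling family: IL7R, TSLP, IL7, IL2RG, IL15, IL15RA, JAK3 and STAT5A. They were picked by gene symbol out of 18417 genes that had an array feature of their own, and each of the 8 had exactly 1 such feature, called a transcript cluster. Where a symbol has several clusters, the rule takes the one with the highest mean over all arrays, so this choice did not arise. Their levels were measured on 6 Affymetrix Human Gene 1.0 ST arrays, for sorted cells of 3 human breast cancer lines of 1 lineage, each with 2 replicates labelled biological. The parental group is MDA-MB-231, a triple-negative breast cancer line. From it 231BoM-1833 was selected for growth in bone and 231BrM-2a for growth in brain, and the study compared each of them with its parent. Each line was grown in RPMI-1640 medium with serum and antibiotics, with no drug or cytokine given per the labels. From every line, magnetic beads kept the CD24-negative, CD44-positive, ESA-positive cells, the surface pattern taken to mark breast cancer stem cells (ESA is the protein of EPCAM). Each group is thus 1 cultured line, and whether its replicates were cultured or sorted separately is not stated in the labels. The spread behind each p-value is therefore that between these arrays and may be technical.

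Interleukin-7 is made mainly by stromal and epithelial cells and signals through a receptor built from its own chain, IL7R, and the common gamma chain, IL2RG. The common gamma chain is shared with the receptors for interleukins 2, 4, 9, 15 and 21, and it carries the kinase JAK3, while the partner chain carries JAK1. The kinases then activate STAT5A and STAT5B, and a second branch runs through PI3K and AKT. Thymic stromal lymphopoietin (TSLP), an epithelial cytokine, also uses IL7R, but pairs it with CRLF2 in place of the common gamma chain. Interleukin-15 is usually presented to neighbouring cells by IL15RA. The pathway is best known for the survival of lymphocytes, and IL7R is a textbook lymphoid gene.

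The start regions of the 2 receptor chains of the interleukin-7 receptor are shown because IL7R had the largest differences of the 8 genes and IL2RG is the chain it needs for interleukin-7. Each run is the 250 bases before the RefSeq start site in assembly GRCh38.p14, read 5′ to 3′ on the strand of the gene: chr5:35856641-35856890, plus strand, for IL7R and chrX:71111578-71111827, minus strand, for IL2RG. Capitals mark matches, on either strand, to the motifs listed after the sequences.
IL7R: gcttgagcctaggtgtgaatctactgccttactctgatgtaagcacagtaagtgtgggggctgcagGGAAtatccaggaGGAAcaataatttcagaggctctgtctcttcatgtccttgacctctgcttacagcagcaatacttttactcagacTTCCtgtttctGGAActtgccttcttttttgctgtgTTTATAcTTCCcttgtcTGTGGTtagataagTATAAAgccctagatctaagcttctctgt
IL2RG: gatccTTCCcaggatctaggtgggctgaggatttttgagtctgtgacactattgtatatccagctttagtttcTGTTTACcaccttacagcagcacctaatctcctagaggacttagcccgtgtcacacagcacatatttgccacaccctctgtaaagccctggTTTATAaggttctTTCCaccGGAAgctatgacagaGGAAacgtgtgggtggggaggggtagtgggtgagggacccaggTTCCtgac
The motifs searched were the ETS core GGAA, the RUNX motif TGTGGT, the FOXO motif GTAAACA, the glucocorticoid receptor core ACANNNTGT, the IRF motif GAAANNGAA, the STAT motif TTCNNNGAA, the CCAAT box CCAAT and the TATA motif TATAAA. The 250 bases before IL7R held 5 matches to GGAA, 1 to TGTGGT and 2 to TATAAA, and those before IL2RG held 5 to GGAA, 1 to GTAAACA and 1 to TATAAA. No 2 of these matches overlap. Over all 35116 promoter entries of the same length, 92.7% held GGAA, 11.0% held TGTGGT, 2.98% held GTAAACA and 10.7% held TATAAA. Of the other 4 motifs, 0 matches lay in either window, and they were in 4.61% (ACANNNTGT), 6.88% (GAAANNGAA), 6.57% (TTCNNNGAA) and 32.0% (CCAAT) of all entries. A match describes letters only. Promoter entries were at hand for 6 of the 8 genes, which are IL7R, IL2RG, TSLP, IL15RA, JAK3 and STAT5A, with 13 entries in all. TTCNNNGAA and GAAANNGAA each occurred in 1 of these entries, both of IL15RA.

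Values are log2 expression, so a difference of 1 is a 2-fold change. Group values are means ± SD (n = 2), differences are given ± SE with limma's p adjusted by Benjamini-Hochberg over 21214 clusters with a gene symbol, and a gene passed the test where that adjusted p was under 0.05. Array medians lay between 6.58 and 6.64, and the 3 replicate pairs correlated at r = 0.9935 to 0.9959 across clusters, which are not independent replicates. The number of arrays limits the precision, and no detection calls were used, so the level at which a gene is silent is not known. A lower value in a sorted population cannot tell fewer expressing cells from less RNA per cell. The sort markers read 11.45 to 12.17 for CD44, 5.76 to 6.49 for CD24 and 7.28 to 8.32 for EPCAM over the 6 arrays. The lowest CD24 and EPCAM values were both on 231BoM-1833 replicate 2.

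Of the 8 genes, only IL7R and IL7 passed the test in any of the 3 comparisons. In 231BoM-1833 against MDA-MB-231, 1 of the 8 passed, IL7R, which was lower. Over all 21214 clusters tested, 15.8% passed there, 8.43% higher and 7.38% lower. Of the 8 genes, 2 passed in the brain-selected line against its parent, IL7R higher and IL7 lower, where 19.0% of all clusters passed, 10.5% higher and 8.59% lower. Between the derivatives the same pair passed, again IL7R higher and IL7 lower in 231BrM-2a, where 23.5% of all clusters passed, 12.5% higher and 11.0% lower. The share of members that passed is near that background and is no result about the family. The median change of the 8 genes was -0.03, -0.10 and 0.01 in these comparisons, in that order, beside -0.05, -0.05 and 0.01 for all clusters. The fall of IL7R in 231BoM-1833 was known when the genes were grouped, and its difference between the derivatives contains that fall. Both are given as a description of the family and support nothing further.

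**Figure D1:**
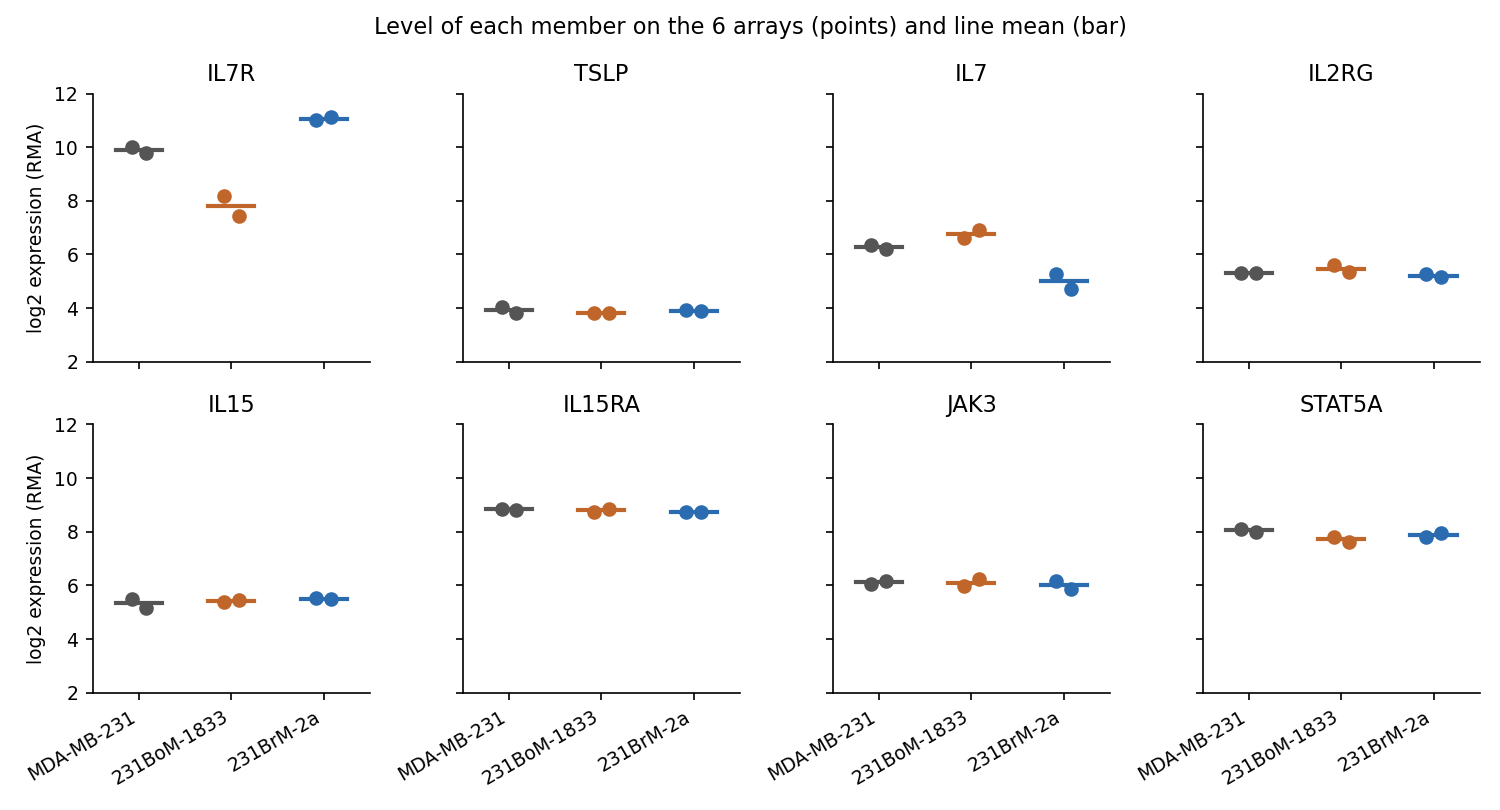
Log2 expression (y axis) of the 8 genes in the 3 lines (x axis), with a point for each array and a bar at the mean of 2 arrays. IL7R runs from 7.45 to 11.12 and IL7 from 4.73 to 6.92, in opposite order of lines, while the points of each of the other 6 genes stay within a narrow band.

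IL7R encodes the chain that binds interleukin-7. It read 10.02 and 9.80 in MDA-MB-231, 8.17 and 7.45 in 231BoM-1833, and 11.01 and 11.12 in 231BrM-2a. No array of one line overlapped another line, so the order was 231BoM-1833, then MDA-MB-231, then 231BrM-2a. The group means were 9.91 ± 0.15, 7.81 ± 0.51 and 11.06 ± 0.079 for the parental, bone-selected and brain-selected lines. 231BoM-1833 was 4.28-fold lower than MDA-MB-231 (-2.10 ± 0.20, 95% interval -2.56 to -1.64, adjusted p = 0.000377). 231BrM-2a was 2.23-fold higher than MDA-MB-231 (1.16 ± 0.20, 95% interval 0.70 to 1.62, adjusted p = 0.00451). That result missed the threshold without MDA-MB-231 replicate 2, at a change of 1.05 and an adjusted p of 0.0503. Between the derivatives the gap was 9.55-fold (3.26 ± 0.20, 95% interval 2.80 to 3.72, adjusted p = 8.87e-06). The pair of 231BoM-1833 arrays stood furthest apart, and the lower of them was replicate 2, the array with the lowest EPCAM. Leaving that array out gave a change of -1.74 against MDA-MB-231 (adjusted p = 0.000378), and the part of the sort in the result was not tested.

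IL7, the ligand of that receptor, ran the other way. It read 6.35 and 6.20 in MDA-MB-231, 6.63 and 6.92 in 231BoM-1833, and 5.27 and 4.73 in 231BrM-2a. The brain-selected arrays were the lowest of the 6 and the bone-selected arrays the highest, with no overlap between lines. The means were 6.28 ± 0.10, 6.77 ± 0.21 and 4.998 ± 0.38 for the parental, bone-selected and brain-selected lines. IL7 fell 2.43-fold from MDA-MB-231 to 231BrM-2a (-1.28 ± 0.18, 95% interval -1.68 to -0.88, adjusted p = 0.00148). It was 3.42-fold lower in 231BrM-2a than in 231BoM-1833 (-1.78 ± 0.18, 95% interval -2.18 to -1.37, adjusted p = 0.000146). The difference of 231BoM-1833 from MDA-MB-231, 0.49 ± 0.18, did not pass (adjusted p = 0.0916, 95% interval 0.09 to 0.90). The 2 lines at the top of the IL7 order are thus not separated by the test. The IL7 values of MDA-MB-231 and 231BrM-2a lay below every array median, where folds can shrink.

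TSLP, the cytokine that shares IL7R, read low and level on all arrays. Its values were 4.02 and 3.80 in MDA-MB-231, 3.82 and 3.81 in 231BoM-1833, and 3.92 and 3.89 in 231BrM-2a. The arrays of MDA-MB-231 span those of both derivatives. The change was -0.09 ± 0.11 in 231BoM-1833 (adjusted p = 0.596) and -0.01 ± 0.11 in 231BrM-2a (adjusted p = 0.962), with 95% intervals of -0.35 to 0.16 and -0.26 to 0.24. Whether the gene is expressed at all cannot be read from these values. CRLF2, the chain that pairs with IL7R to bind TSLP, was higher in the brain-selected line. It read 4.55 and 4.73 in MDA-MB-231, 4.69 and 4.46 in 231BoM-1833, and 5.60 and 5.48 in 231BrM-2a. All these CRLF2 values lay below the array medians, where folds can shrink. The rise was 1.87-fold over MDA-MB-231 (0.90 ± 0.12, adjusted p = 0.00132) and 1.95-fold over 231BoM-1833 (0.96 ± 0.12, adjusted p = 0.000562). The arrays of the first 2 lines overlap, and their difference was -0.06 ± 0.12 (adjusted p = 0.758).

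IL2RG, the common gamma chain, differed little between lines. It read 5.30 and 5.31 in MDA-MB-231, 5.59 and 5.33 in 231BoM-1833, and 5.27 and 5.15 in 231BrM-2a. Its change was 0.16 ± 0.12 in 231BoM-1833 (adjusted p = 0.400) and -0.10 ± 0.12 in 231BrM-2a (adjusted p = 0.618). Between the derivatives it was -0.25 ± 0.12 (adjusted p = 0.171, 95% interval -0.52 to 0.02). The receptor chain that binds interleukin-7 thus moved by more than 3 log2 units between the derivatives, while no change in its partner chain was detected. All IL2RG values lay below the array medians, so a change could be missed. Whether IL2RG is expressed at all cannot be read from them.

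JAK3, the kinase carried by the common gamma chain, read 6.05 and 6.17 in MDA-MB-231, 5.96 and 6.24 in 231BoM-1833, and 6.15 and 5.86 in 231BrM-2a. The arrays of all lines overlapped, and the change was -0.01 ± 0.14 and -0.11 ± 0.14 in the bone- and brain-selected lines (adjusted p = 0.961 and 0.639). The sign of the first turned under other scalings of the arrays. All JAK3 values lay below the array medians, so a change could be missed. STAT5A, a transcription factor activated by these kinases, read 8.12 and 7.99 in MDA-MB-231, 7.81 and 7.63 in 231BoM-1833, and 7.80 and 7.96 in 231BrM-2a. Both derivatives lay below the parental arrays without passing the test, at -0.33 ± 0.12 (adjusted p = 0.0870, 95% interval -0.60 to -0.07) and -0.17 ± 0.12 (adjusted p = 0.356). The derivatives overlapped each other, and their difference was 0.16 ± 0.12 (adjusted p = 0.378).

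IL15, the cytokine, read 5.50 and 5.16 in MDA-MB-231, 5.38 and 5.45 in 231BoM-1833, and 5.51 and 5.50 in 231BrM-2a. Its change was 0.08 ± 0.13 and 0.18 ± 0.13 in the bone- and brain-selected lines (adjusted p = 0.688 and 0.365). All IL15 values also lay below the array medians, so a change could be missed. IL15RA, its presenting receptor, read 8.86 and 8.82 in MDA-MB-231, 8.74 and 8.85 in 231BoM-1833, and 8.72 and 8.75 in 231BrM-2a. The change was -0.04 ± 0.10 and -0.11 ± 0.10 (adjusted p = 0.799 and 0.512), and all 6 arrays lay within a span of 0.14. For IL15RA the 95% intervals, -0.28 to 0.19 and -0.34 to 0.13, leave room only for small differences in either direction.

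**Figure D2:**
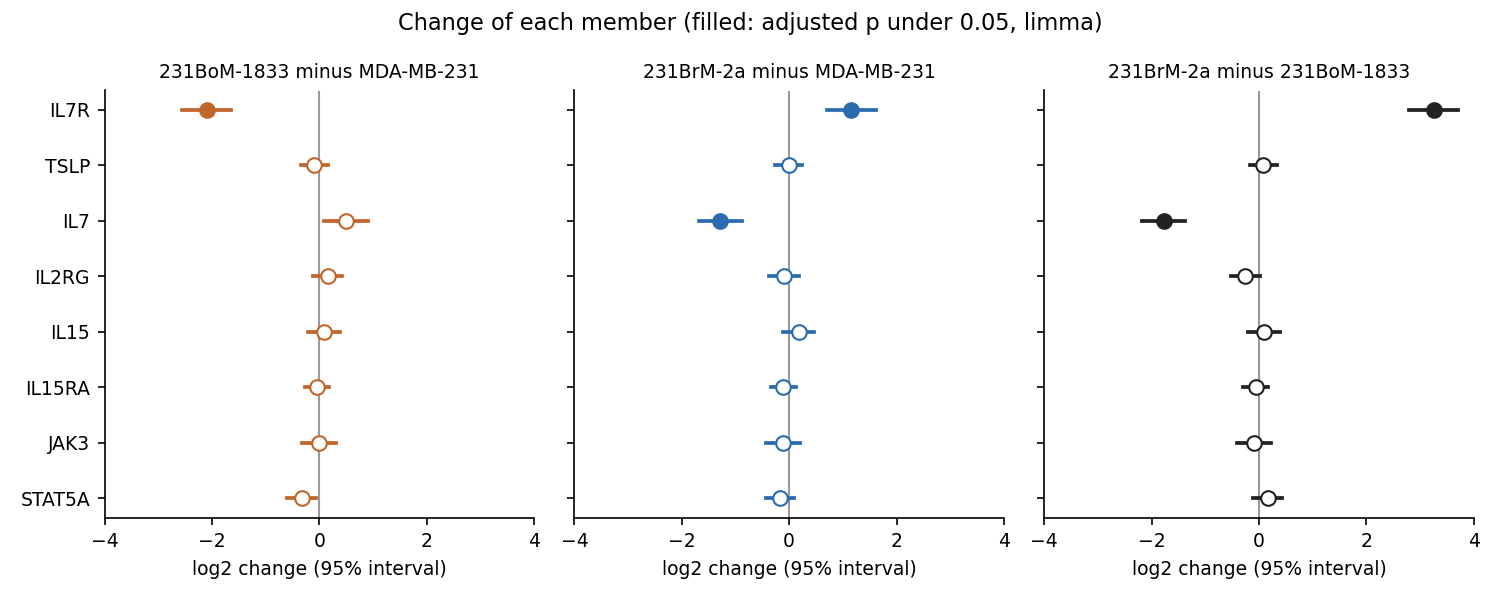
Log2 change (x axis) of the 8 genes (rows) in the 3 comparisons (panels), with 95% intervals as lines and points filled where limma's adjusted p was under 0.05. IL7R is filled in all panels, at -2.10, 1.16 and 3.26, IL7 in the panels with 231BrM-2a, at -1.28 and -1.78, and the other 6 genes have unfilled points.

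The other ligands and receptor chains of the family held 1 gene that rose, CRLF2, and 1 that fell, IL2RA, both in 231BrM-2a. Of 3 further ligands measured (IL2, IL4 and IL21), 0 passed in any comparison by limma and 0 had an unadjusted p under 0.05. IL2 had the largest difference, -0.22 ± 0.11 between the derivatives (adjusted p = 0.178, unadjusted p = 0.0664). Of 6 further receptor chains, 0 passed in 231BoM-1833 by limma, where 2 had an unadjusted p under 0.05. In 231BrM-2a, IL2RA, the interleukin-2 receptor alpha chain, fell by 0.55 ± 0.11 (1.46-fold, adjusted p = 0.00760), a result lost without MDA-MB-231 replicate 2 (adjusted p = 0.0597) or 231BrM-2a replicate 2 (0.0757). IL4R, the interleukin-4 receptor chain, had a difference of -0.34 ± 0.11 in 231BoM-1833 (adjusted p = 0.0625). The median change of the 6 chains was -0.17 in 231BoM-1833 and -0.14 in 231BrM-2a, beside -0.05 for all clusters in both. Of all clusters, 15.8% passed in 231BoM-1833, 19.0% in 231BrM-2a and 23.5% between the derivatives.

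Among the other JAK kinases and STAT factors, STAT4 stood out in the brain-selected line. STAT4, a factor best known for relaying interleukin-12, read 5.37 and 5.43 in MDA-MB-231, 5.38 and 5.81 in 231BoM-1833, and 6.93 and 7.06 in 231BrM-2a. The rise was 3.02-fold over MDA-MB-231 (1.60 ± 0.15, adjusted p = 0.000137) and 2.65-fold over 231BoM-1833 (adjusted p = 0.000181). STAT5B, the close relative of STAT5A, was 1.26-fold higher in 231BrM-2a than in 231BoM-1833 (adjusted p = 0.0395), but missed the threshold in 10 of the 14 alternative analyses. Among these were all that left out 1 of the 6 arrays (adjusted p = 0.0632 to 0.185). JAK1, the kinase carried by IL7R, had changes of 0.29 ± 0.11 and 0.06 ± 0.11 in the bone- and brain-selected lines (adjusted p = 0.0928 and 0.717). Of the 7 genes measured, 0 passed by limma in 231BoM-1833, where 1 had an unadjusted p under 0.05, and 1 passed in 231BrM-2a, with 2 between the derivatives. The shares over all clusters were 15.8%, 19.0% and 23.5% in these comparisons.

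Genes known to answer to STAT5 moved in both directions. Of 18 measured, 2 rose and 4 fell in 231BoM-1833, and 2 rose and 8 fell in 231BrM-2a, beside 15.8% and 19.0% of all clusters that passed. Their median change was -0.07 and -0.34, beside -0.05 for all clusters in both. Both genes that rose in 231BoM-1833, DUSP5 and LIF, lost that call in some alternatives. DUSP5, a phosphatase of MAP kinases, had the change of greatest size in the list in 231BrM-2a against MDA-MB-231. It read 11.06 and 10.88 in MDA-MB-231, 11.71 and 11.44 in 231BoM-1833, and 9.57 and 9.38 in 231BrM-2a. DUSP5 fell 2.82-fold in 231BrM-2a against MDA-MB-231 (adjusted p = 0.000121). In 231BoM-1833 it rose 1.52-fold (0.61 ± 0.13, adjusted p = 0.0168). The call was lost without replicate 2 of MDA-MB-231 (change 0.51, adjusted p = 0.128), without replicate 1 of 231BoM-1833 (0.47, adjusted p = 0.0627) and with clusters without a symbol tested too (0.61, adjusted p = 0.0534). Like IL7, and unlike IL7R, DUSP5 was highest in the bone-selected line. CCND2, which encodes cyclin D2, fell 2.30-fold in 231BrM-2a (-1.20 ± 0.13, adjusted p = 0.000366).

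ID1, an inhibitor of helix-loop-helix factors, followed the order of IL7R. It read 8.66 and 8.65 in MDA-MB-231, 8.18 and 7.73 in 231BoM-1833, and 9.26 and 9.76 in 231BrM-2a. Its rise in 231BrM-2a (1.81-fold, adjusted p = 0.0124) and its fall in 231BoM-1833 (1.62-fold, adjusted p = 0.0357) each missed the threshold without either MDA-MB-231 array (adjusted p = 0.0659 and 0.0805 for the rise, 0.130 and 0.155 for the fall). They also missed it without replicate 2 of the derivative (adjusted p = 0.0966 and 0.148), or with clusters without a symbol tested too (0.0534 and 0.0968). Between the derivatives ID1 differed 2.93-fold (adjusted p = 0.000406). LIF, a cytokine, was 2.20-fold lower in 231BrM-2a than in 231BoM-1833 (adjusted p = 0.000432). Its rise in 231BoM-1833 against MDA-MB-231 (0.52 ± 0.14, adjusted p = 0.0357) missed the threshold in 8 of the 14 alternatives, 5 of them without 1 array: either MDA-MB-231 array, 231BoM-1833 replicate 1 or either 231BrM-2a array (adjusted p = 0.0538 to 0.144). CISH, a feedback inhibitor that STAT5 induces, had changes of -0.33 ± 0.12 and -0.22 ± 0.12 in the bone- and brain-selected lines (adjusted p = 0.0974 and 0.256).

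Brakes on JAK-STAT signalling split as well. Of 17 measured, 1 rose and 2 fell in 231BoM-1833, 1 rose and 3 fell in 231BrM-2a, and 2 were higher and 6 lower in 231BrM-2a than in 231BoM-1833. Of all clusters, 15.8%, 19.0% and 23.5% passed in these comparisons. The median change of the list was -0.09, -0.05 and 0.09, beside -0.05, -0.05 and 0.01 for all clusters. PTPN11, a phosphatase that also promotes signalling from many receptors, fell 1.60-fold in 231BrM-2a (-0.68 ± 0.12, adjusted p = 0.00370). PIAS2, a SUMO ligase of the PIAS family, was 1.58-fold lower in 231BrM-2a than in 231BoM-1833 (adjusted p = 0.00155), and SOCS6, a SOCS-box adaptor, 1.56-fold lower (adjusted p = 0.00752, 0.0525 without 231BrM-2a replicate 1). PIAS1 went the other way, 1.64-fold higher in 231BrM-2a than in MDA-MB-231 (adjusted p = 0.00756, but 0.0744 without MDA-MB-231 replicate 2 and 0.0555 without 231BrM-2a replicate 2). Of the feedback inhibitors, SOCS2, which is also in the list of genes that answer to STAT5, fell 1.46-fold in 231BoM-1833 (-0.55 ± 0.13, adjusted p = 0.0257). That call was lost in 4 of the 14 alternatives, among them without either MDA-MB-231 array (0.134 and 0.0876) or without 231BoM-1833 replicate 2 (0.0986). SOCS1 and SOCS3 did not pass against MDA-MB-231 (adjusted p = 0.337 to 0.915).

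In the PI3K branch, 3 of 10 measured genes rose and 1 fell in 231BoM-1833, and 1 rose and 1 fell in 231BrM-2a. Of all clusters, 15.8% and 19.0% passed there. The median change of the list was 0.11 and 0.19, beside -0.05 for all clusters in both. PIK3R1, the regulatory subunit of PI3K, read 8.36 and 8.29 in MDA-MB-231, 8.98 and 8.81 in 231BoM-1833, and 8.01 and 7.82 in 231BrM-2a. It was 1.97-fold lower in 231BrM-2a than in 231BoM-1833 (-0.98 ± 0.12, adjusted p = 0.000372). AKT1, a kinase downstream of PI3K, was 1.60-fold higher in 231BrM-2a than in 231BoM-1833 (0.68 ± 0.10, adjusted p = 0.00141). The calls of the named genes against MDA-MB-231 depended on single arrays. The remaining gene that rose in 231BoM-1833 was not recomputed. AKT1, the gene that fell in 231BoM-1833 (-0.43 ± 0.10, adjusted p = 0.0218), missed the threshold in 4 of the 14 alternatives, among them without either MDA-MB-231 array or 231BoM-1833 replicate 2 (adjusted p = 0.108, 0.0935 and 0.0658). PIK3R1, the gene that fell in 231BrM-2a (-0.41 ± 0.12, adjusted p = 0.0374), missed it in 5, among them without any 1 array of the 2 lines compared (0.0675 to 0.232). The rise of PIK3R1 in 231BoM-1833 (0.57 ± 0.12, adjusted p = 0.0127) was lost without either MDA-MB-231 array (0.0567 and 0.0958). PIK3CD, a catalytic subunit of PI3K, rose in 231BoM-1833 (0.40 ± 0.11, adjusted p = 0.0335) and SHC1, an adaptor, rose in 231BrM-2a (0.39 ± 0.11, adjusted p = 0.0401). These calls were lost in 9 and 7 of the 14 alternatives, each without any 1 array of the 2 lines compared (adjusted p = 0.0687 to 0.147 for PIK3CD and 0.128 to 0.180 for SHC1).

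**Figure D3:**
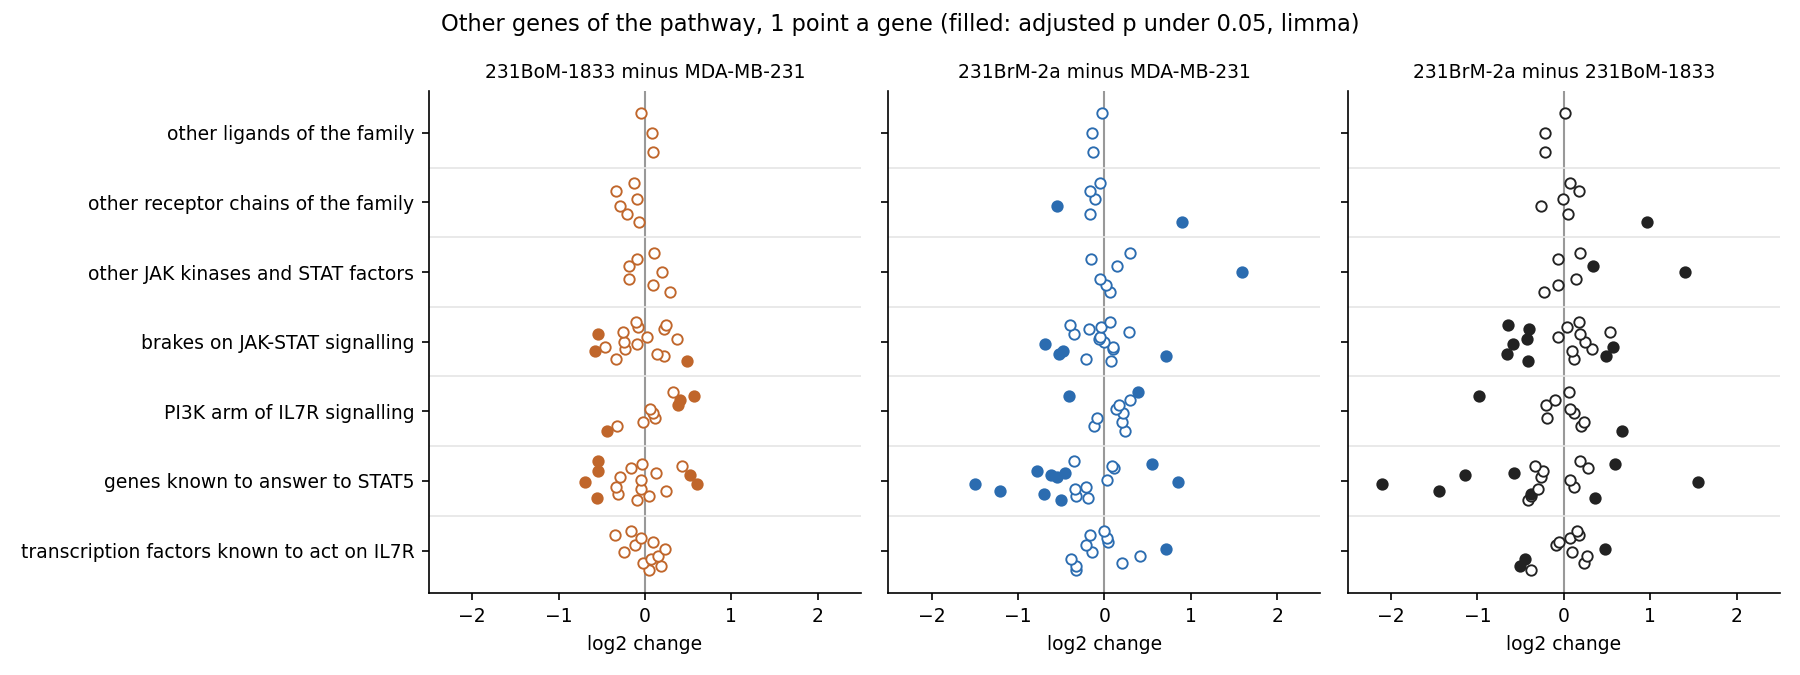
Log2 change (x axis) of the other genes of the pathway, grouped in rows by role, in the 3 comparisons (panels), with 1 point a gene and points filled where limma's adjusted p was under 0.05. Filled points lie on both sides of 0 in several rows, and the furthest are DUSP5 at -2.10 and ID1 at 1.55 between the derivatives and STAT4 at 1.60 in 231BrM-2a against MDA-MB-231.

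Transcription factors known to act on IL7R in lymphoid cells included 1 that passed against MDA-MB-231. Of 12 measured, 0 passed by limma in 231BoM-1833, where 1 had an unadjusted p under 0.05 and 15.8% of all clusters passed. In 231BrM-2a, where 19.0% of all clusters passed, 1 did. That gene was IRF1, an interferon-induced factor, which read 8.12 and 8.20 in MDA-MB-231, 8.39 and 8.40 in 231BoM-1833, and 8.96 and 8.79 in 231BrM-2a (1.64-fold over MDA-MB-231, adjusted p = 0.00208). Between the derivatives 1 was higher and 2 were lower in 231BrM-2a, beside 23.5% of all clusters that passed. ETS1, a factor of the GGAA-binding ETS family, was 1.42-fold lower in 231BrM-2a than in 231BoM-1833 (adjusted p = 0.0141, 0.120 without 231BrM-2a replicate 2). GABPA, another factor of that family, was 1.37-fold lower (adjusted p = 0.0462), a call lost in 8 of the 14 alternatives, among them without any 1 array other than 231BoM-1833 replicate 1 (0.0724 to 0.220). The glucocorticoid receptor gene NR3C1 had changes of 0.10 ± 0.11 and 0.04 ± 0.11 in the bone- and brain-selected lines (adjusted p = 0.592 and 0.830). RUNX1, a factor of the TGTGGT-binding RUNX family, had -0.04 ± 0.11 and 0.03 ± 0.11 (adjusted p = 0.814 and 0.883).

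Likeness to IL7R was measured as the Euclidean distance between log2 values centred on each gene's mean over the 6 arrays, so it weighs pattern and size together. The median gene of the 18416 others lay at 3.34 from IL7R. The nearest was MAOA, a monoamine oxidase, at 0.34, followed by GPRC5B, an orphan receptor, at 0.48. KRT7, a simple epithelial keratin, lay at 0.78, ZBTB16, a transcriptional repressor, at 0.79 and DAAM2, a formin-family protein, at 1.00. MAOA read 10.46 and 10.17 in MDA-MB-231, 8.36 and 7.77 in 231BoM-1833, and 11.08 and 11.22 in 231BrM-2a. Like IL7R, it was lower on replicate 2 than on replicate 1 of 231BoM-1833, as were GPRC5B (7.13 and 6.24) and KRT7 (9.06 and 8.88). ZBTB16 (6.96 and 6.99) and DAAM2 (5.86 and 5.94) were slightly higher on replicate 2. These genes were picked for their likeness, so their levels are a description. For TSLP, whose values hardly vary, the nearest were PAXX, WWC2, CD160, FAM78A and TMEM51-AS1, at 0.05 to 0.07 where the median gene lay at 0.44.

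**Figure D4:**
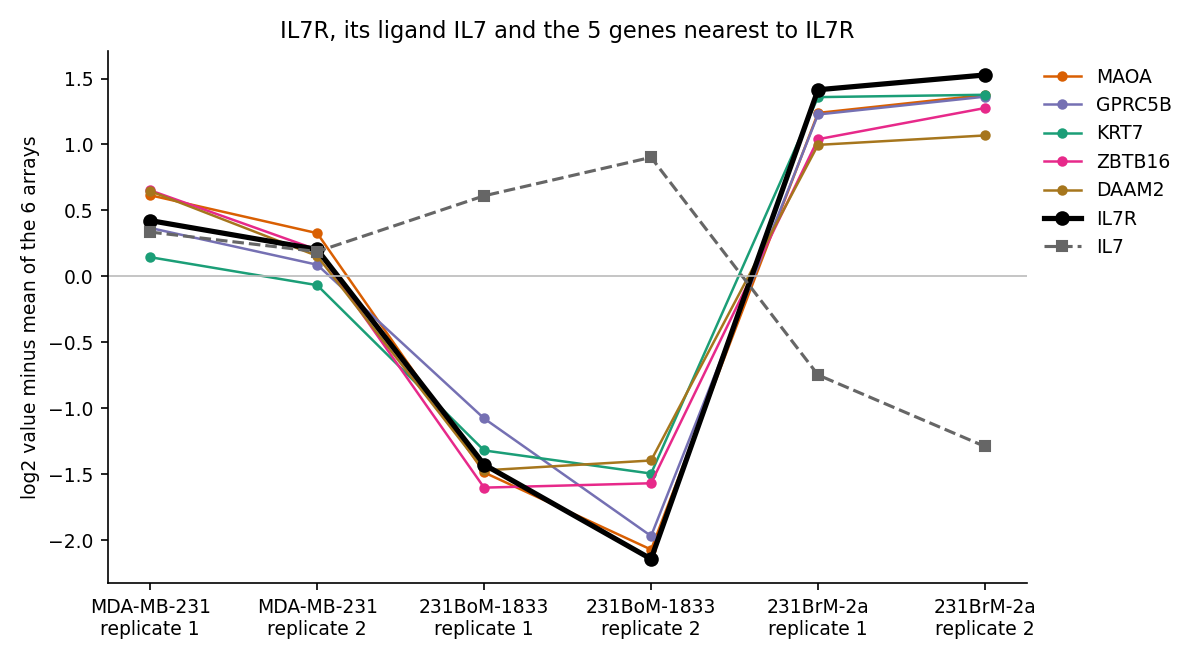
Log2 value minus the mean of the 6 arrays (y axis) for IL7R (black), its 5 nearest genes (colours) and its ligand IL7 (grey, dashed) on each array (x axis); lines only join the points of a gene. The 6 similar genes are low on both 231BoM-1833 arrays and high on both 231BrM-2a arrays, and IL7 has the opposite order.

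None of the 10 measured genes beside IL7R on its chromosome both fell in 231BoM-1833 and rose in 231BrM-2a by limma's test. The share of all clusters that did both is not given here. Of all clusters, 7.38% were lower in 231BoM-1833 and 10.5% higher in 231BrM-2a, so this absence among few genes is no result about the neighbours. Of the 10 nearest measured protein-coding neighbours of IL7R in RefSeq order, 5 on either side, 1 rose and 1 fell in 231BoM-1833, and 2 rose and 0 fell in 231BrM-2a by limma. Between the derivatives 1 was higher and 0 were lower in 231BrM-2a. Of all clusters, 15.8%, 19.0% and 23.5% passed in these comparisons, so the counts are no result about the neighbours. SPEF2 and CAPSL, on the immediate left and right, had changes of -0.05 ± 0.10 and 0.06 ± 0.11 in 231BoM-1833, and of -0.09 ± 0.10 and 0.16 ± 0.11 in 231BrM-2a (adjusted p = 0.377 to 0.796). SPEF2 averaged 4.22 to 4.31 and CAPSL 4.87 to 5.02 in the lines, below every array median. Several of the other neighbours also averaged below the array medians, so a change in these genes could be missed. LMBRD2, a membrane protein gene, rose in 231BoM-1833 (1.66-fold, adjusted p = 0.00247), where IL7R fell. SKP2, a ubiquitin ligase subunit of the cell cycle, rose with IL7R in 231BrM-2a (1.91-fold, adjusted p = 0.00354) and had a change of -0.13 ± 0.16 in 231BoM-1833. Between the derivatives SKP2 was 2.10-fold higher in 231BrM-2a (1.07 ± 0.16, adjusted p = 0.00127), the direction that IL7R had. Over the 10 neighbours the change ran from -0.47 to 0.73 in 231BoM-1833, from -0.24 to 0.94 in 231BrM-2a, and from -0.35 to 1.07 between the derivatives. LMBRD2 also rose in 231BrM-2a, by 0.54 ± 0.10 (adjusted p = 0.00670), a result lost without MDA-MB-231 replicate 2 (0.0621) or 231BrM-2a replicate 1 (0.0597). DNAJC21 was the neighbour that fell in 231BoM-1833 (-0.47 ± 0.11, adjusted p = 0.0195), and it missed the threshold in 4 of the 14 alternatives, 3 of them without 1 array (without MDA-MB-231 replicate 1 or 2 or 231BoM-1833 replicate 2, adjusted p = 0.0539, 0.139 and 0.0607).

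**Figure D5:**
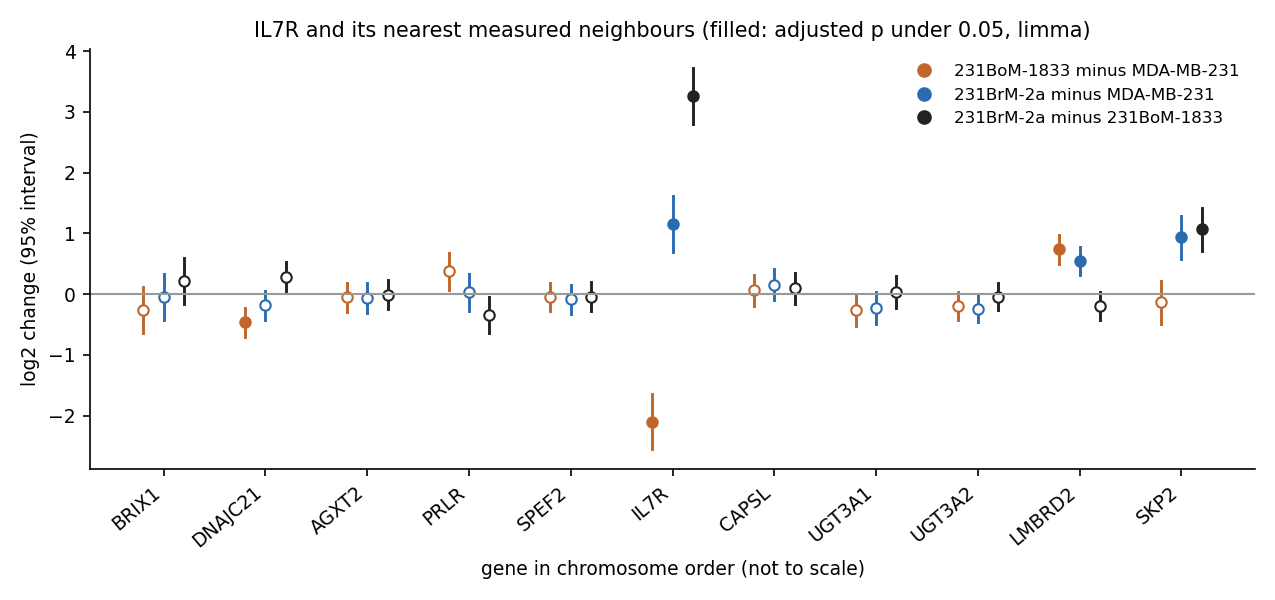
Log2 change with 95% interval (y axis) of IL7R and the 5 nearest measured protein-coding genes on either side, in chromosome order (x axis, not to scale), for the 3 comparisons (colours). IL7R stands at -2.10, 1.16 and 3.26, while the neighbours lie between -0.47 and 1.07.

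Since IL7R is known as a lymphoid gene, markers of blood and other cells were read on the same arrays. Of 16 markers of T, B and NK cells, 0 rose and 1 fell, NKG7, in each derivative against MDA-MB-231 by limma, and 2 had an unadjusted p under 0.05 in each. The shares of all clusters that passed were 15.8% in 231BoM-1833 and 19.0% in 231BrM-2a. The NKG7 calls (-0.37 ± 0.11 in both, adjusted p = 0.0444 and 0.0381) were lost in 11 and 6 of the 14 alternatives, each without any 1 array of the 2 lines compared (adjusted p = 0.0845 to 0.216 in 231BoM-1833 and 0.0893 to 0.208 in 231BrM-2a). Their mean level lay between 5.69 and 5.79 on the MDA-MB-231 arrays, 5.65 and 5.67 on those of 231BoM-1833, and 5.62 and 5.66 on those of 231BrM-2a. PTPRC, the pan-leukocyte marker, averaged 3.73, 3.68 and 3.71 in these lines, and the T cell receptor component CD3D 5.28, 5.23 and 5.06. Not all markers of the list were that low. NKG7 averaged 7.26, 6.88 and 6.88, and the highest value of any marker was 8.42, 8.45 and 8.31, all above every array median. The mean over the lymphoid markers was highest on the MDA-MB-231 arrays, and the ranges of the derivatives overlapped. These means over the list lay below every array median, and the part of lymphoid cells in the IL7R values was not tested. Of 11 myeloid and dendritic markers, 1 rose in 231BoM-1833 and 1 fell in 231BrM-2a, beside 15.8% and 19.0% of all clusters that passed. It was CD14 both times (0.88 ± 0.12, adjusted p = 0.00219, and -0.50 ± 0.12, adjusted p = 0.0195). The fall was lost in 4 of the 14 alternatives, among them without either MDA-MB-231 array or 231BrM-2a replicate 1 (0.113, 0.0711 and 0.133). Their mean level ran from 5.54 to 5.56, 5.57 to 5.61 and 5.30 to 5.33 on the arrays of the 3 lines.

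Of 10 red cell, platelet, endothelial and fibroblast markers, 1 rose and 1 fell in 231BoM-1833 and 3 rose and 3 fell in 231BrM-2a, beside 15.8% and 19.0% of all clusters that passed. Their mean levels were 5.85 to 5.88, 5.76 to 5.77 and 5.88 to 5.96 on the arrays of the 3 lines. The 3 that rose in 231BrM-2a, PDGFRB, DCN and LUM, are all the fibroblast markers of the list. LUM read 3.59 and 3.74 in MDA-MB-231 and 4.05 and 4.01 in 231BrM-2a, below every array median. Whether LUM is expressed at all cannot be read from these values. PDGFRB, a growth factor receptor of mesenchymal cells, read 6.20 and 6.20 in MDA-MB-231, 6.20 and 6.49 in 231BoM-1833, and 7.78 and 8.01 in 231BrM-2a (3.25-fold over MDA-MB-231, 1.70 ± 0.13, adjusted p = 6.54e-05). DCN, which encodes the matrix protein decorin, rose 1.97-fold in 231BrM-2a (0.98 ± 0.16, adjusted p = 0.00296) and was the marker that fell in 231BoM-1833 (-0.79 ± 0.16, adjusted p = 0.0122). DCN thus had the order of lines that IL7R had. Its fall was lost without 231BoM-1833 replicate 2 (0.0533) and when replicate 1 of MDA-MB-231 was left out (0.0838). LUM, which encodes the matrix protein lumican, rose by 0.36 ± 0.11 in 231BrM-2a (adjusted p = 0.0440), a call lost in 7 of the 14 alternatives, among them without any 1 array of the 2 lines compared (0.0900 to 0.205). The 3 that fell in 231BrM-2a were KDR, an endothelial growth factor receptor (2.19-fold, adjusted p = 0.000425), the platelet gene PPBP (1.42-fold, adjusted p = 0.0220) and the endothelial gene PECAM1 (1.30-fold, adjusted p = 0.0382). The calls of PPBP and PECAM1 were lost without any 1 array of the 2 lines compared (0.0680 to 0.127 and 0.0810 to 0.215). KDR was also the marker that rose in 231BoM-1833 (0.44 ± 0.13, adjusted p = 0.0444), a call lost in 8 of the 14 alternatives, among them without any 1 array other than 231BoM-1833 replicate 1 (0.0617 to 0.213). The part of blood, vessel or fibroblast cells in the results was not tested.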

How the data were processed

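Sorted cells of 3 breast cancer lines were hybridised to 6 arrays, 2 per line. The deposited values are log2 expression, 1 per transcript cluster and array, which the authors made with the RMA algorithm of Affymetrix Expression Console (no version named), per the labels. RMA subtracts background, gives all arrays 1 distribution and summarises probes, which hides any change in a cell's total RNA and can shrink folds at low signal. The build used for the array design: not given in the sources used here.

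The table held 33297 clusters. A platform table gave 21214 of them a symbol, 19460 exactly 1, for 18417 genes, of which 18389 matched RefSeq (GRCh38.p14) by gene number. That assembly served for gene order and promoters. All 6 arrays entered 1 fit of line means (limma 3.58.1 under R 4.3.3, lmFit and eBayes; 3 residual and 6.06 prior degrees of freedom), and the two-sided p-values were adjusted by Benjamini-Hochberg across those 21214 clusters. No filter on low values was applied. The script was tested on simulated data.

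The members, the gene lists, the motifs and the rule for named genes were chosen with earlier results of these data known. The rule named all members, at most 4 genes per list with the largest change among those that passed (the largest as a value where none did), the 5 genes nearest to IL7R and to TSLP, neighbours of IL7R that passed, and partners of members. Further genes (IL4R, JAK1, CISH, SOCS1, SOCS2, SOCS3, NR3C1, RUNX1, PTPRC, CD3D, LUM, PECAM1, SPEF2, CAPSL) were chosen after their values were seen. List genes without a cluster of 1 symbol were left out. Replicate numbers did not pair the samples. Alternatives were other spread estimates, scalings, sets of clusters or samples, a replicate block and leaving out each array.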

Additional observations from a re-analysis of the deposited data

Results flagged for a closer look

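IL7R and IL7 are listed because the derivatives lay on opposite sides of MDA-MB-231 and the difference between the derivatives itself passed limma's test. For IL7R the difference of 231BrM-2a from 231BoM-1833 was 3.26 (log2). That value contains the fall in 231BoM-1833, which was known when the genes were grouped, so it is a description only. For IL7 the difference was -1.78, and there the change of 231BoM-1833 from MDA-MB-231 did not pass on its own. Groups of 2 arrays are too small for a check of single outlying arrays.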

How the results depend on the processing

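Results of the members and of the named list genes and neighbours were recomputed under 14 alternatives, 8 of the processing and 6 that left out 1 array. IL7R in 231BoM-1833 against MDA-MB-231 and between the derivatives, and IL7 in both comparisons with 231BrM-2a, kept their direction and passed the test in every alternative that tested them; IL7R in 231BrM-2a against MDA-MB-231 missed it in 1 (adjusted p = 0.0503 without MDA-MB-231 replicate 2, range 0.00035 to 0.0503). Over the leave-one-out fits, IL7R ran from -2.46 to -1.74, from 1.05 to 1.27 and from 2.90 to 3.61 in the 3 comparisons in the order of the report, and IL7 from 0.35 to 0.64, from -1.55 to -1.01 and from -2.05 to -1.50. Leaving out the dimmest 33.3% of clusters removed TSLP, IL7, IL2RG, IL15 and JAK3, so 1 member passed instead of 2 in both comparisons with 231BrM-2a. The count of members that passed in 231BrM-2a against MDA-MB-231 was 1 to 2 without 1 array.

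Among the members, signs turned only where changes were near 0 and did not pass. JAK3 in 231BoM-1833 against MDA-MB-231 was 0.0283 after quantile normalization and 0.0265 with arrays centred on their median. Without 1 array, the ranges that cross 0 were -0.20 to 0.0136 for TSLP in 231BoM-1833 against MDA-MB-231, -0.12 to 0.0983 for TSLP in 231BrM-2a against MDA-MB-231 (turned values 0.0983 and 0.0028), -0.0849 to 0.25 for IL15 in 231BoM-1833 against MDA-MB-231, -0.15 to 0.13 for JAK3 in 231BoM-1833 against MDA-MB-231 (turned values 0.0479 and 0.13), -0.0973 to 0.0084 for IL15RA in 231BoM-1833 against MDA-MB-231, -0.24 to 0.0508 for JAK3 in 231BrM-2a against 231BoM-1833 (turned values 0.0482 and 0.0508) and -0.25 to 0.0381 for JAK3 in 231BrM-2a against MDA-MB-231.

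Over all clusters, 2220 passed in 231BoM-1833 against MDA-MB-231 when unnamed clusters entered the test as well, against 3354. Without 1 array, 932 to 2936, 1764 to 4751 and 3001 to 4750 passed in the 3 comparisons, with the lowest counts of the first 2 without MDA-MB-231 replicate 2. The replicate numbers did not pair the samples: the deviations of same-numbered arrays correlated at 0.04, -0.16 and -0.17. With the replicate block, 2724, 3535 and 4564 clusters passed, and the members that passed numbered 1, 2 and 2, as without it. Of 64 results of members and named genes that passed, 31 passed in every alternative run and 33 missed the threshold in at least 1. Of 38 values of named genes outside the members that did not pass, 36 passed in no alternative, 2 in 1 (IL4R in 231BoM-1833 against MDA-MB-231 without the dimmest clusters, adjusted p = 0.0446, and SOCS3 between the derivatives without 231BoM-1833 replicate 1, 0.00715), and 14 changed sign in at least 1; the likeness ranking and the promoter matches were not recomputed. Taking the mean of several clusters of a symbol was not run, as each member has 1 cluster. The depth of an array has no count, and signal over background was not given.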
